A study of Mus musculus with 8 samples.

Results

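The last step of postnatal liver maturation was followed by comparing whole mouse liver at postnatal day (P) 28 with adult liver at 3 months, over all genes. There were 2 libraries at each of these stages, so that 4 of the 8 libraries of the series were compared. Every liver came from wild-type FVB mice (FVB/NJ in the study's methods) that carried no transgene and received no treatment. The remaining 4 libraries, 2 each at embryonic day (E) 18 and P14, entered the fit for the spread between duplicates and gave the comparison around birth. The labels give no sex, litter, batch or time of collection, and the methods describe adult whole livers at 3 months as male. The study's results call the libraries biological duplicates, and the number of animals in each is not stated. With 2 libraries against 2, an exact permutation test of a single gene cannot give a two-sided p below 0.33, so the tests below rest on a model fitted across all genes.

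The number of reads counted on genes was 94468682 and 83325445 at P28 and 68154675 and 74810384 in adult. Values are counts per 1000000 reads (CPM) after scaling by the trimmed mean of M-values (TMM), which corrects for the share of reads taken by a few abundant transcripts. The transcript of albumin (Alb), the main protein of plasma, took a large share in all 4 libraries, at 129700 and 114400 CPM in the P28 livers and 65950 and 49660 CPM in the adult livers. Both adult values lay below both P28 values. Among the 14 hepatocyte markers examined, 3 increased, 1 (Alb) decreased and 10 did not pass the test. The 3 became 1 without the second P28 or the second adult library and 6 without either E18 library. Markers of pancreas, skeletal muscle and adipocytes summed to no more than 1.27 CPM per list in any of the 4 libraries.

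In the weeks after weaning, the mouse liver completes its growth, most hepatocytes leave the cell cycle, and the extracellular matrix laid down around vessels and sinusoids is remodelled. The same weeks span puberty. In rodents, the pulsatile release of growth hormone in males and its steadier release in females then set different levels of many hepatocyte enzymes, carriers and secreted proteins. Proliferation is read from genes used for DNA replication and for mitosis, and the matrix from collagens, basement membrane proteins, glycoproteins, proteoglycans and the enzymes that assemble or degrade them.

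Out of 17081 genes tested, 131 increased and 382 decreased by more than 3-fold from P28 to adult at a false discovery rate (FDR) below 0.1 in edgeR's quasi-likelihood test with Benjamini-Hochberg adjustment. These were 0.767% and 2.24% of the tested genes. For each of the 513 genes, the 2 libraries of 1 stage both lay above the 2 of the other. At the same FDR and any fold, 1357 genes (7.94%) increased and 2259 (13.2%) decreased. The counts of list members below are to be set beside these shares. Genes are described below as increased or decreased when they passed this FDR, and as changed more than 3-fold when they also passed the fold. Those that increased at any fold numbered 515 without the first P28 library, 610 without the second, 618 without the first adult library and 571 without the second. Those that decreased numbered 1152 without the first P28 library, 1366 without the first adult library and 1294 without the second.

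Most of the late decreases ended at a low level. The adult mean was below 1 CPM for 294 of the 382 genes, and 218 of the 382 had their highest stage mean at E18. At P28, 64 of the 382 had a mean of at least 10 CPM. For 50 of them the mean was below 1 CPM at E18, P14 and P28 alike. Of the 131 increased genes, 103 had their highest stage mean in adult liver. For 57 of the 131, the mean had been below 1 CPM at E18, P14 and P28 alike. In adult liver, 40 of the 131 still had a mean below 1 CPM, and 41 had a mean of at least 10 CPM.

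**Figure D1:**
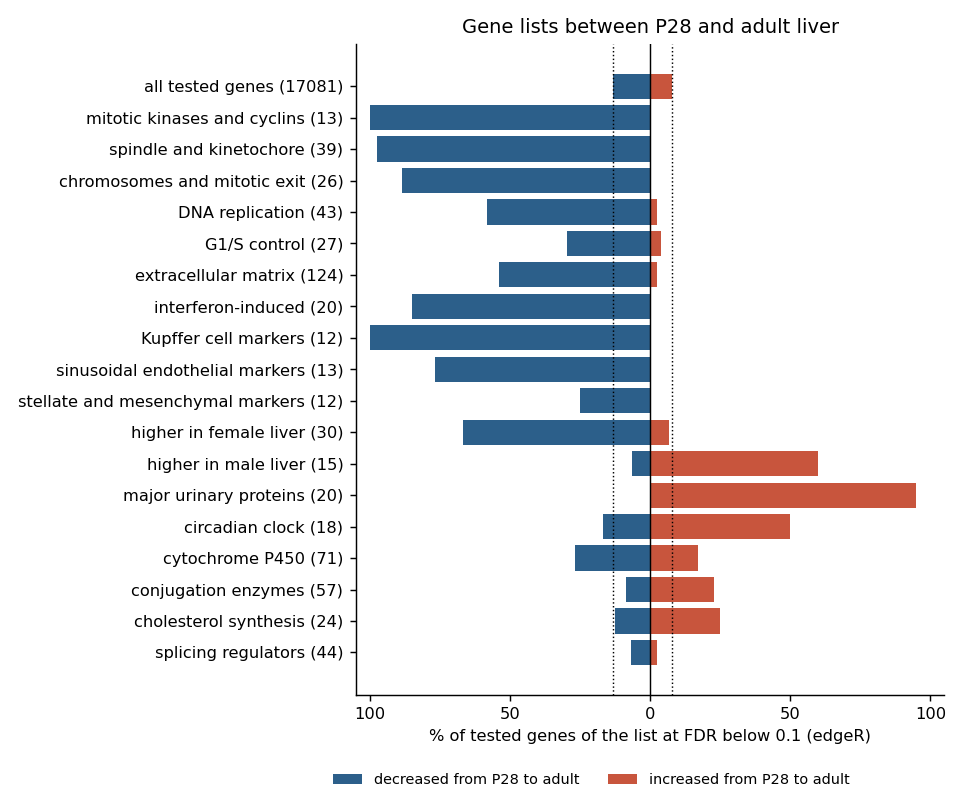
Share of the tested genes of each list that decreased (to the left) or increased (to the right) from P28 to adult at FDR below 0.1, as a percentage of the genes in brackets. The dotted lines mark the shares of all tested genes, 13.2% decreased and 7.94% increased. The proliferation list lies far to the left with 99 of 121 genes, and the major urinary proteins far to the right with 19 of 20.

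Genes of cell division decreased nearly throughout. Of 121 proliferation genes tested, 99 decreased, 69 of them more than 3-fold, 1 increased and 21 did not pass the test. Across the 121 the median change was -1.91 on the log2 scale, against 0 over everything tested. The decrease was deeper for mitosis than for replication. Of the 78 mitotic genes, 74 decreased, 58 of them more than 3-fold, with a median log2 change of -2.80. Their summed level was 400.4 and 324.3 CPM at P28 and 120.7 and 119.3 CPM in adult, after 7387 and 8595 CPM at E18 and 1031 and 1198 CPM at P14. Of the 43 replication genes, 25 decreased, 11 of them more than 3-fold, 1 increased and 17 did not pass, with a median log2 change of -0.67.

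All 13 mitotic kinases and cyclins decreased, 11 of them more than 3-fold. Cdk1, the kinase that drives entry into mitosis, was at 8.54 and 7.11 CPM in the P28 livers and at 1.41 and 1.24 CPM in the adult livers. It fell by 2.57 on the log2 scale (SE 0.19, edgeR adjusted p = 9.6e-05), or 5.93-fold, and the stages did not overlap. Ccnb1, the cyclin B1 subunit that activates Cdk1, was counted with 62 and 53 reads at P28 and with 1 read in each adult library. Its log2 change of -5.45 (SE 0.45, edgeR adjusted p = 0.000196) rests on those single reads. The ratio of the summed reads after scaling for library size, 47.3, had an exact 95% counting interval of 12.8 to 395. Plk1, a kinase of spindle assembly, fell by 3.48 on the log2 scale (SE 0.30) and Aurkb, the kinase of the chromosomal passenger complex, by 3.08 (SE 0.20).

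Mki67, which coats mitotic chromosomes and is the usual marker of cycling cells, was at 19.6 and 14.0 CPM at P28 and at 0.791 and 0.723 CPM in adult. The change was 22.2-fold, a log2 change of -4.47 (SE 0.21, edgeR adjusted p = 1.89e-05). Both P28 livers therefore held Mki67 RNA well above either adult liver, although far below the mean of 1265 CPM at E18. Top2a, the topoisomerase that untangles chromosomes before they separate, was at 10.8 and 9.39 CPM at P28 and at 1.46 and 1.52 CPM in adult. It fell by 2.76 on the log2 scale (SE 0.12, edgeR adjusted p = 1.47e-05).

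Of the 39 spindle and kinetochore genes, 38 decreased and 31 of these changed more than 3-fold. Hmmr, a spindle protein that also binds hyaluronan, went from 4.21 and 2.80 CPM to 0.138 and 0.105 CPM, a 28.9-fold decrease. Kif18b, a motor protein of spindle microtubules, went from 1.61 and 1.26 CPM to 0.0688 and 0.0301 CPM, with 4 and 2 adult reads. The ratio of its summed reads, scaled for library size, had an exact 95% counting interval of 13.6 to 82.7. Kntc1, a kinetochore protein of the spindle checkpoint, was also among the 10 largest decreases of genes with a mean of at least 1 CPM at the higher stage, at 26.9-fold. Bub1, a checkpoint kinase, fell by 4.32 on the log2 scale (SE 0.38). None of these pairs of P28 values overlapped the adult pair.

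Of the 26 genes of chromosome condensation, mitotic exit and cytokinesis, 23 decreased. Cdc20, which activates the ubiquitin ligase that starts anaphase, went from 4.94 and 3.20 CPM to 0.172 and 0.211 CPM, a 21.1-fold decrease. The 4 mitotic genes that did not pass the test were Spc24, Hjurp, Fbxo5 and Depdc1a, named after their values were seen. Spc24, a kinetochore subunit, was at 8.09 and 7.18 CPM at P28 and at 8.34 and 5.66 CPM in adult, and Hjurp, the chaperone of the centromeric histone, at 24.5 and 23.0 CPM against 21.3 and 24.2 CPM. In both genes the stages overlapped. Fbxo5 had a log2 change of -0.35 (edgeR adjusted p = 0.318), and Depdc1a was counted with at most 7 reads in any of the 4 libraries.

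Promoters of mitotic genes often carry a cell cycle homology region (CHR), an element bound by the DREAM and MuvB complexes, whereas promoters of replication genes often carry sites for E2F factors. The letters TTTGAA and TTCGAA were taken as CHR, and TTTCCCGC, TTTCGCGC, TTTGCCGC and TTTGGCGC as E2F sites, each searched on both strands in the RefSeq promoters of GRCm38.p6, from 250 bases before to 50 bases after each gene's start. Of the 58 mitotic genes that changed more than 3-fold, 48 had a promoter in that table, and 38 of those (79.2%) held a CHR. The share was alike over all 78 mitotic genes whatever their change, of which 63 had a promoter and 49 of those (77.8%) a CHR. A CHR was present in 21.7% of all 27025 genes with a promoter entry, in 16.9% of the 11758 tested genes with one, in 6 of 34 replication genes (17.6%) and in 7 of 48 decreased matrix genes (14.6%). An E2F site was present in 2.6% of all genes, in 4.1% of the tested genes and in 15 of the 34 replication genes (44.1%), whatever their change. Among mitotic genes it was present in 3 of the 48 (6.25%) and in 6 of the 63 (9.52%). CCAAT, on either strand, was present in 41.1% of all genes and in 42.1% of the tested genes. Among mitotic genes it was present in 37 of the 48 (77.1%) and in 48 of the 63 (76.2%). It was also present in 20 of the 34 replication genes (58.8%) and in 18 of the 48 decreased matrix genes (37.5%). A match of these short letters is a description of the window and not a bound site.

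The following 60 base windows show where the CHR stood in 5 mitotic genes that decreased more than 3-fold. These had the highest P28 level among such genes with a single promoter entry and a single match near the start. The windows are written 5′ to 3′ on the strand of the gene, with the matched letters in capitals (TTCAAA is TTTGAA read on the other strand).
Top2a chr11:99024180-99024239, minus strand: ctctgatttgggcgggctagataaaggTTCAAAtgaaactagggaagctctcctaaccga
Ccnb2 chr9:70421518-70421577, minus strand: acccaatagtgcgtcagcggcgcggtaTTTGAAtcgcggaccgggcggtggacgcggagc
Cenpf chr1:189688052-189688111, minus strand: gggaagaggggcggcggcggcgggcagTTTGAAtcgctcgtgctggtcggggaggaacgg
Cdca8 chr4:124936872-124936931, minus strand: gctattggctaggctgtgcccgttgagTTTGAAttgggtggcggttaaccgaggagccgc
Spag5 chr11:78301567-78301626, plus strand: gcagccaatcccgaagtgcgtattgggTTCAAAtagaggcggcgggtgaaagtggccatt
In Top2a the first base of the match lay 23 bases before the start, and in the other 4 genes it lay 3 to 14 bases after it. Ccnb2, the B2 cyclin, went from 6.05 and 4.71 CPM at P28 to 0.275 and 0.392 CPM in adult, and Cenpf, a kinetochore protein, from 5.90 and 4.25 CPM to 0.223 and 0.256 CPM. Cdca8 (borealin) belongs to the chromosomal passenger complex and Spag5 (astrin) to the spindle.

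**Figure D2:**
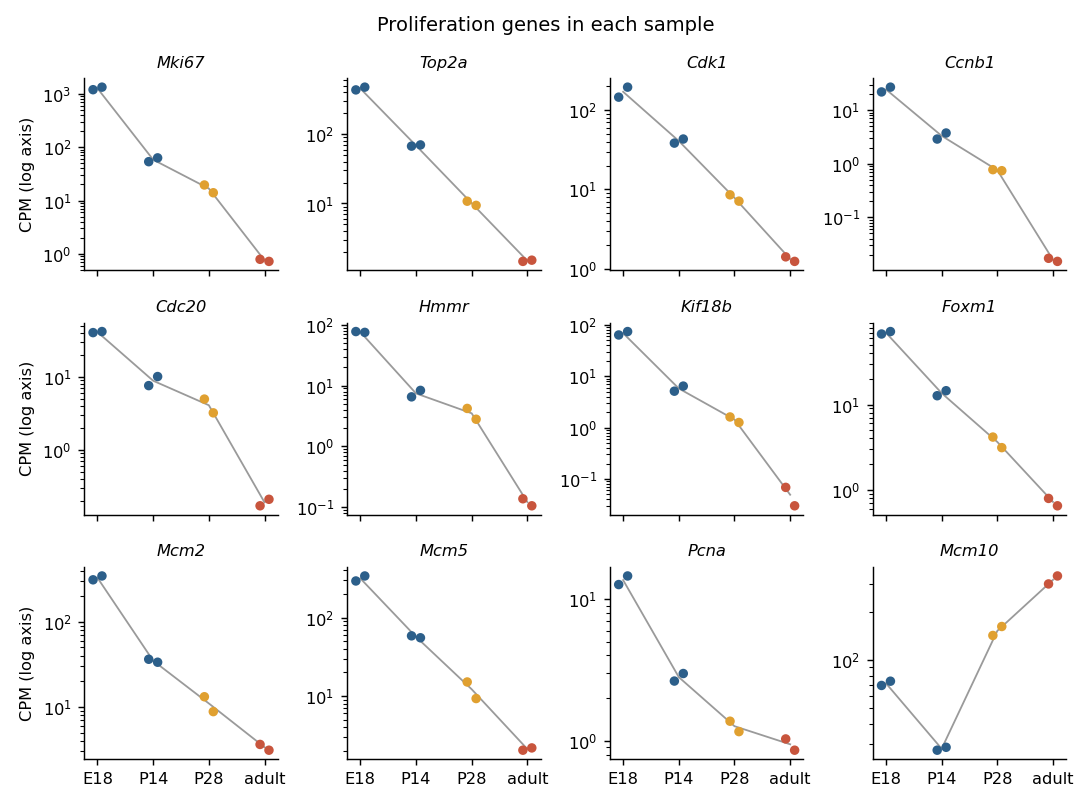
CPM on a log axis for 12 proliferation genes at E18, P14, P28 and adult. Each point is 1 library, the lines join the stage means, and each panel has its own axis. From P28 to adult the points of 10 genes drop without overlap and pass the test, Pcna drops from 1.38 and 1.16 to 1.03 and 0.859 CPM without passing it, and Mcm10 rises from 143 and 162 to 299 and 335 CPM.

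Replication genes changed less, and not all in the same direction. The MCM helicase subunits decreased with Mcm2 at 13.2 and 8.81 CPM at P28 against 3.63 and 3.10 CPM in adult (log2 change -1.71, SE 0.19, edgeR adjusted p = 0.000699). Mcm5 went from 15.1 and 9.26 CPM to 2.03 and 2.17 CPM (log2 change -2.53, SE 0.22), and Mcm6 fell by 3.43 on the log2 scale (SE 0.25). In each of these 3 genes the second P28 library lay below the first and above both adult libraries. Cdt1, which loads the helicase, fell by 1.85 on the log2 scale (SE 0.18). Pcna, the sliding clamp of the polymerases, was at 1.38 and 1.16 CPM at P28 and at 1.03 and 0.859 CPM in adult. Its log2 change of -0.43 (SE 0.19, edgeR adjusted p = 0.171) did not pass the test. Rrm2, a ribonucleotide reductase subunit, and Tk1, thymidine kinase, had log2 changes of -0.32 (SE 0.22) and 0.12 (SE 0.21), which did not pass either. The level of Pcna was far below that of Mcm2 and Mcm5, and whether all of its reads were counted was not tested.

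Mcm10, a replication initiation factor, was the 1 replication gene that increased. It was at 142.6 and 162.2 CPM at P28 and at 299 and 335.3 CPM in adult, a log2 increase of 1.06 (SE 0.10, edgeR adjusted p = 0.000421), and its stage mean at P14 had been 28.0 CPM. Because of Mcm10, the summed level of the replication genes did not drop. It was 562.9 and 511.8 CPM at P28 and 575.5 and 590.3 CPM in adult. Whether all of these reads belong to Mcm10 was not tested.

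For the E2F letters, the windows of 3 replication genes are given in the same form as above. They were chosen in the same way, but among genes that decreased at any fold. Mcm3, another helicase subunit, fell by 1.91 on the log2 scale (SE 0.20), and Pole2, a subunit of the leading strand polymerase, by 1.04 (SE 0.23). The decrease of Pole2 did not pass the test without the first P28 library.
Mcm3 chr1:20820263-20820322, minus strand: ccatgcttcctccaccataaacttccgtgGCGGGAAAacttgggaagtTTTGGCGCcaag
Mcm6 chr1:128359719-128359778, minus strand: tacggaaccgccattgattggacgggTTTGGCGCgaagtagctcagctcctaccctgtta
Pole2 chr12:69228147-69228206, minus strand: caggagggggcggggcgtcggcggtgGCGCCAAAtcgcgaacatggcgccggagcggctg
The Mcm3 window holds 2 matches, of which the second lay beyond the stretch near the start that was searched for the choice. The first base of the match near the start lay 20 bases after it in Mcm3, 47 bases before it in Mcm6 and 11 bases after it in Pole2.

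The P28 livers differed from each other along the same axis. The first P28 library lay above the second for 109 of the 121 proliferation genes, against 9189 of all 17081 tested genes. Without the first P28 library 92 of the 121 genes decreased, 61 of them more than 3-fold, and without the second 97 and 72. Bulk liver RNA cannot tell fewer cycling cells from less of these RNAs per cell, here or in the results that follow.

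Genes that control entry into S phase changed little by comparison. Of 27 genes tested, 8 decreased, 1 increased and 18 did not pass. The 8 became 5 without the first P28 or the second adult library. Foxm1, the transcription factor of mitotic genes, was at 4.15 and 3.12 CPM at P28 and at 0.791 and 0.648 CPM in adult (log2 change -2.34, SE 0.19, edgeR adjusted p = 0.000166). E2f7, a repressor of the E2F family, increased by 1.10 on the log2 scale (SE 0.24, edgeR adjusted p = 0.018), a call that was lost without the first P28 or the second adult library. Ccnd1 (cyclin D1) was at 125.8 and 121.4 CPM at P28 and at 132.7 and 130.1 CPM in adult. Its log2 change was 0.09 (SE 0.09, edgeR adjusted p = 0.568). Among the inhibitors, Cdkn1a (p21) went from 18.3 and 8.83 CPM to 1.56 and 2.02 CPM, a log2 change of -2.92 (SE 0.41, edgeR adjusted p = 0.00252). Its mean at P14 had been 99.2 CPM.

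Matrix genes formed the next large group. Of 124 tested genes of the matrix list, 67 decreased, 18 of them more than 3-fold, 3 increased and 54 did not pass. The median log2 change was -0.62. The number that decreased was 46 without the first P28 library and 55 without the second, 48 without the first adult library and 52 without the second. The decrease was deepest in the fibrillar collagens, the collagens of interstitial fibres, whose summed level went from 365.8 and 376.7 CPM to 84.5 and 102.6 CPM. Of 9 genes, 5 decreased and 4 of these more than 3-fold.

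Col3a1 (type III collagen) was at 224.9 and 232.8 CPM at P28 and at 38.3 and 47.3 CPM in adult. The log2 change was -2.42 (SE 0.20, edgeR adjusted p = 0.000174). Col1a1 went from 27.3 and 29.8 CPM to 6.55 and 9.10 CPM, and Col1a2, the other chain of type I collagen, from 59.2 and 62.9 CPM to 16.6 and 18.3 CPM. Their log2 changes were -1.86 (SE 0.27) and -1.81 (SE 0.21). In all 3 genes the spread within a stage was small next to the distance between the stages.

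Of 34 glycoproteins and elastic fibre genes, 20 decreased and 6 of these more than 3-fold. The 20 became 12 without the first P28 or the first adult library. Eln, elastin of the vessel wall, had the largest log2 change of the 67 listed genes that decreased. It was at 40.1 and 43.2 CPM at P28 and at 3.52 and 3.99 CPM in adult, an 11.1-fold decrease (log2 change -3.47, SE 0.22, edgeR adjusted p = 4.96e-05). Emid2, a collagen chain that the list does not hold, fell further. Its mean went from 1.40 CPM at P28 to 0.0494 CPM in adult, a log2 change of -4.82. Fbn1, the fibrillin on which elastin is deposited, fell by 1.84 on the log2 scale (SE 0.18). Sparc, a collagen-binding glycoprotein, went from 387.4 and 405.3 CPM to 101.8 and 87.8 CPM (log2 change -2.06, SE 0.12, edgeR adjusted p = 4.45e-05). Fn1 (fibronectin), which hepatocytes also secrete into plasma, was at 2290 and 2105 CPM at P28 and at 1952 and 2265 CPM in adult. The stages overlapped for Fn1 and the log2 change was -0.06 (SE 0.16, edgeR adjusted p = 0.857).

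Of 23 basement membrane genes, 13 decreased, 4 of them more than 3-fold. Col4a1, the main chain of type IV collagen, was at 130.5 and 129.2 CPM at P28 and at 38.9 and 41.6 CPM in adult (log2 change -1.69, SE 0.10, edgeR adjusted p = 4.27e-05). Of the 16 proteoglycans 7 decreased, or 4 without the first P28 library or either adult library, among them Vcan (versican), with 48 and 45 reads at P28 and 3 and 10 reads in adult, a call that was lost without the first adult library. Dcn (decorin) was at 216.1 and 224.5 CPM at P28 and at 201.8 and 197.0 CPM in adult. Its stages did not overlap, but the log2 change of -0.14 (SE 0.11, edgeR adjusted p = 0.417) did not pass.

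Of 18 genes of matrix assembly and cross-linking, 12 decreased and 2 increased. Lox, a lysyl oxidase that cross-links collagen and elastin, went from 1.31 and 1.19 CPM to 0.172 and 0.542 CPM (log2 change -1.77, SE 0.39, edgeR adjusted p = 0.0182), with the adult libraries further apart than the P28 libraries. Loxl2, of the same family, fell by 1.94 on the log2 scale (SE 0.14). The matrix list does not hold every matrix gene. Outside it, Omd, a proteoglycan, rose from a mean of 2.18 CPM at P28 to 10.9 CPM in adult. Mmp7, a metalloproteinase, rose from 0.0397 to 0.525 CPM. Their log2 changes were 2.32 and 3.69. Hapln1 and Mmp8, also outside it, fell by 2.04 and 2.70. Omd, Mmp7, Hapln1 and Mmp8 were named after their values were seen. So were the 3 genes of the list that increased. They were P4ha1 and P4ha2, catalytic subunits of the prolyl hydroxylase that acts on collagen, and Mmp15, a membrane-type metalloproteinase. P4ha1 went from 14.3 and 13.6 CPM to 22.7 and 20.3 CPM, and P4ha2 from 6.24 and 6.87 CPM to 12.7 and 9.76 CPM. The increase of Mmp15, 0.40 on the log2 scale (SE 0.11), was lost without the first P28 or the second adult library. Of the 14 turnover genes 5 decreased, or 3 without the first P28 library, and Timp2, an inhibitor of metalloproteinases, had a log2 change of -0.08 (SE 0.12, edgeR adjusted p = 0.74).

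**Figure D3:**
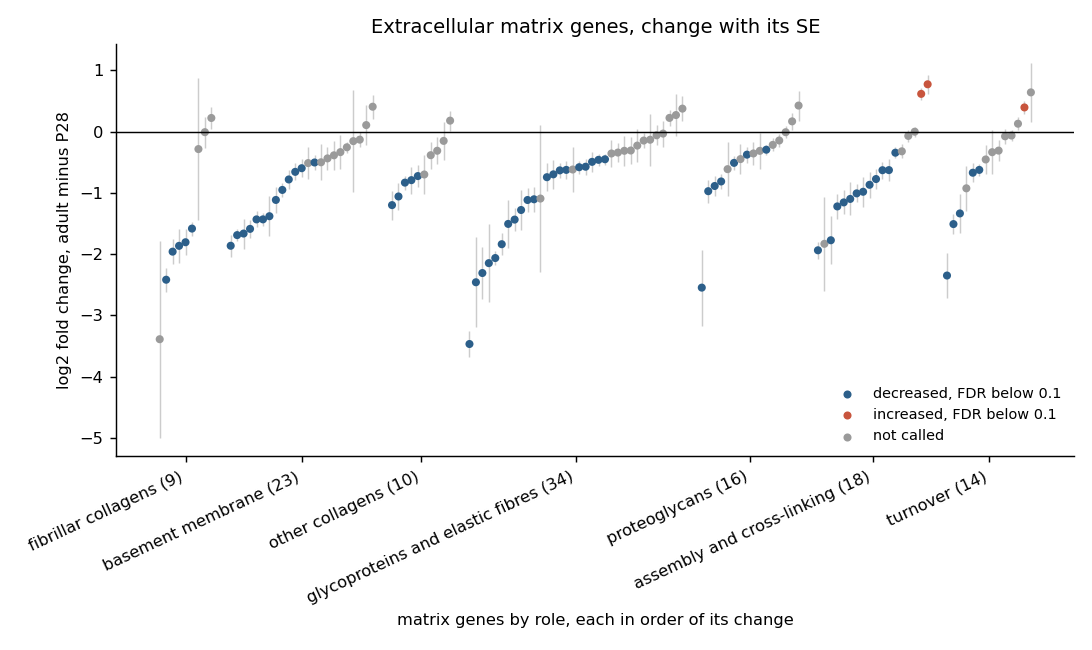
Log2 fold change from P28 to adult with its SE for the 124 matrix genes, grouped by role. Blue points decreased, red points increased and grey points did not pass the FDR of 0.1. Blue points make up 67 of the 124 and red points 3, and the fibrillar collagens and Eln reach far below the median of -0.62.

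Markers of the cells that make or border this matrix were examined beside it. Of 12 stellate and mesenchymal markers, 3 decreased (5 without the second P28 library), and the summed level was 231.2 and 237.0 CPM at P28 and 183.3 and 185.2 CPM in adult. Of 13 sinusoidal endothelial markers, 10 decreased, with sums of 457.2 and 462.8 CPM against 377.1 and 324.4 CPM. The endothelial count fell to 4 when either P28 library was left out and to 3 without the second adult library. None of the 8 cholangiocyte markers passed the test. The part of these cells in the matrix result was not tested.

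Genes known to differ between male and female liver included the largest decreases. At a mean of at least 1 CPM at the higher stage, the 10 largest decreases included 5 genes of the list of genes higher in female liver, among them Hao2, A1bg, Slc22a26 and Cyp2b9. Of the 30 genes of that list, 20 decreased, 15 of them more than 3-fold, and 2 increased. Of the 15 genes higher in male liver, 9 increased, 4 of them more than 3-fold, and 1 decreased. The median log2 changes were -1.72 and 1.12. Ntrk2 and Sult1e1 were the 2 female-biased genes that increased and Cspg5 the male-biased gene that decreased. Ntrk2 and Cspg5 were named after their values were seen.

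Hao2, a peroxisomal hydroxyacid oxidase, was at 127.5 and 47.5 CPM in the P28 livers and at 0.172 and 0.121 CPM in the adult livers (log2 change -9.23, SE 0.59, edgeR adjusted p = 5.09e-05). A1bg, a plasma glycoprotein, was at 195.3 and 44.4 CPM at P28 and at 0.980 and 0.452 CPM in adult. In both genes the first P28 library lay well above the second, and each lay far above adult. Without the first P28 library the log2 change was -8.35 for Hao2 and -5.97 for A1bg.

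Cyp2b9, a cytochrome P450, was at 25.98 and 4.71 CPM at P28 and at 0.980 and 0.0603 CPM in adult. Its log2 change of -4.95 (SE 0.94, edgeR adjusted p = 0.00972) therefore ranged from -7.97 to -3.24 over the alternatives. Abcd2, a peroxisomal transporter of very long chain acyl groups, was more even within stages. It was at 52.9 and 37.9 CPM at P28 and at 2.94 and 2.26 CPM in adult (log2 change -4.13, SE 0.28, edgeR adjusted p = 6.35e-05). Prlr, the prolactin receptor, fell by 1.28 on the log2 scale (SE 0.27), from 370.4 and 299.3 CPM to 146.7 and 129.5 CPM, and was lost without the second adult library.

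Among the male-biased genes, Cyp7b1, an oxysterol hydroxylase of bile acid synthesis, was at 142.2 and 326.3 CPM at P28 and at 1073 and 1332 CPM in adult (log2 change 2.36, SE 0.33, edgeR adjusted p = 0.0024). Susd4, a complement regulator, went from 7.50 and 12.5 CPM to 47.2 and 53.6 CPM. Gstp1, a glutathione transferase, went from 59.6 and 98.3 CPM to 261.3 and 269.4 CPM, a 3.36-fold increase. Here the second P28 library was the higher of the pair in every case and still lay below adult. Hsd3b5, a male-specific steroid reductase, increased by 1.12 on the log2 scale (SE 0.21, edgeR adjusted p = 0.00936).

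Of the 20 female-biased genes that decreased, 17 were higher in the first P28 library than in the second, and all 9 male-biased genes that increased were lower in it. Without the first P28 library, 14 female-biased genes decreased and 5 male-biased genes increased. Without the second adult library the counts were 11 and 5. Xist, the RNA of the inactive X chromosome, was at 0.975 and 0.685 CPM at P28 and at 0.756 and 0.648 CPM in adult, and the 4 Y-linked genes together were at 136.3 and 142.6 CPM against 144.7 and 162.6 CPM. The 4 libraries thus carried the Y-linked RNAs at like levels. In contrast, Xist was at 773.7 and 83.6 CPM in the E18 libraries and at 0.545 and 570.2 CPM in the P14 libraries. The Y-linked genes together were at 0.0072 and 79.4 CPM at E18 and at 122.0 and 12.2 CPM at P14. The spread used in the fit of all 8 libraries includes these differences between duplicates. A fit of the 4 P28 and adult libraries alone called 18 female-biased genes decreased and 9 male-biased genes increased.

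**Figure D4:**
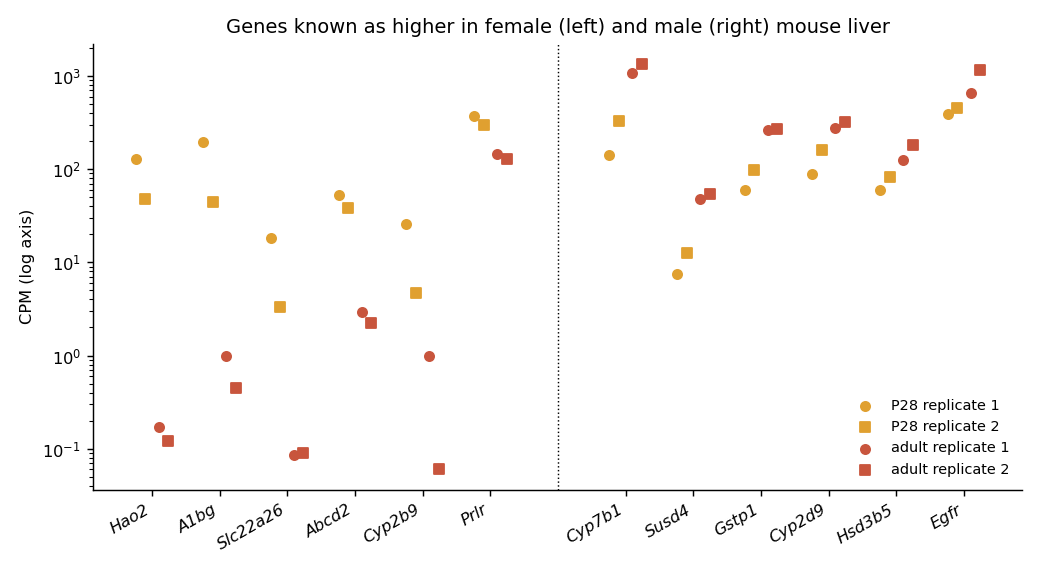
CPM on a log axis of 6 genes higher in female liver (Hao2 to Prlr) and 6 higher in male liver (Cyp7b1 to Egfr) in the 2 P28 libraries (yellow) and the 2 adult libraries (red). Circles are replicate 1 and squares replicate 2. The first P28 library lies farther from adult than the second for every gene, and no gene shows an overlap between stages.

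The major urinary proteins, lipocalins that carry pheromones and are secreted at higher levels by male liver, increased as a family. Of 20 genes tested, 19 increased, 8 of them more than 3-fold, with a median log2 change of 1.503. Mup21 was at 16.5 and 24.7 CPM at P28 and at 226.1 and 247.8 CPM in adult, an 11.5-fold increase (log2 change 3.53, SE 0.20, edgeR adjusted p = 4.27e-05). Mup3, which held most of the family's reads, went from 1073 and 1165 CPM to 2128 and 2050 CPM (log2 change 0.90, SE 0.20, edgeR adjusted p = 0.0195). Most other members are near-identical copies between which reads cannot be divided with certainty. All 19 increased members were lower in the first P28 library than in the second, and the count fell to 8 without the first P28 library and to 7 without the second adult library.

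At a mean of at least 1 CPM at the higher stage, the 10 largest increases also held genes outside these lists. Moxd1, a monooxygenase related to dopamine beta-hydroxylase, was counted with 3 and 4 reads at P28 and with 1519 and 7905 reads in adult. Its adult levels of 26.1 and 119.1 CPM differed widely from each other, and its log2 change was 10.57 (SE 1.02, edgeR adjusted p = 0.000368), with a range of 9.09 to 11.29 over the alternatives. The ratio of its summed reads, scaled for library size, had an exact 95% counting interval with a lower end of 794. Ankrd55, an ankyrin repeat protein, was far more even, at 3.04 and 3.20 CPM at P28 and 58.1 and 85.1 CPM in adult (log2 change 4.52, SE 0.20). Serpine2, an inhibitor of serine proteases, went from 2.21 and 3.65 CPM to 33.6 and 43.2 CPM, after means of 7.67 CPM at E18 and 6.04 CPM at P14. Also among the 10 were 1700113H08Rik, Dkk4, Lcn13, Irx1 and Capn8, with log2 increases of 3.45 to 5.13 and P28 means below 3 CPM.

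Some abundant transcripts rose in the same interval, of which Hamp, Nox4 and C6 were named after their values were seen. Hamp (hepcidin), the hormone that limits iron uptake, was at 251.6 and 316.4 CPM at P28 and at 2006 and 1968 CPM in adult (log2 change 2.81, SE 0.14, edgeR adjusted p = 1.89e-05), after stage means of 0.524 CPM at E18 and 0.359 CPM at P14. Its close copy Hamp2 may share reads with it. Nox4, an oxidase that makes hydrogen peroxide, went from 11.0 and 14.9 CPM to 87.7 and 101.2 CPM (log2 change 2.86, SE 0.17). C6, a complement component, went from 104.0 and 179.9 CPM to 523.6 and 639.1 CPM. Among fatty acid synthesis genes, Thrsp, an activator of lipogenesis, rose 4.43-fold to 3265 and 2645 CPM and Lpin1, a phosphatidate phosphatase, rose 4.09-fold to 256.0 and 214.3 CPM.

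Cytochrome P450 genes of families 1 to 4 moved in both directions. Of 71 tested, 12 increased and 19 decreased. The increases numbered 4 without the first P28 library, 7 without the first adult library and 5 without the second, which also left 12 of the decreases. All 12 changes beyond 3-fold were decreases. Cyp4a14, a fatty acid omega-hydroxylase, was at 21.0 and 21.6 CPM at P28 and at 0.739 and 0.482 CPM in adult, a 35.1-fold decrease (log2 change -5.13, SE 0.18, edgeR adjusted p = 5.28e-06). Its P28 pair agreed closely, unlike that of Cyp2b9. Cyp3a11, a broad drug-metabolising P450, went from 215.2 and 120.6 CPM to 52.9 and 35.9 CPM. Cyp2e1, which oxidises ethanol, went from 8180 and 8431 CPM to 14440 and 13320 CPM, a log2 change of 0.74 (SE 0.15, edgeR adjusted p = 0.0125). Copies within the Cyp2c, Cyp3a and Cyp4a families may share reads.

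Several genes of the fetal and suckling liver decreased further. Lpl, lipoprotein lipase, which fetal and suckling liver makes, went from 178.7 and 167.4 CPM to 12.7 and 14.5 CPM (log2 change -3.67, SE 0.12, edgeR adjusted p = 5.28e-06). Igf2bp3, an oncofetal RNA-binding protein, went from 22.2 and 17.5 CPM to 1.24 and 1.30 CPM, a 15.6-fold decrease. H19, an imprinted long RNA, was already down to 4.20 and 2.41 CPM at P28 from a stage mean of 13860 CPM at P14, and reached 0.774 and 0.422 CPM in adult. Meg3, an imprinted long RNA expressed from the maternal allele, went the other way, from 2.06 and 2.27 CPM to 7.65 and 6.75 CPM (log2 change 1.73, SE 0.25, edgeR adjusted p = 0.00271). Of the 26 fetal and imprinted genes, 9 decreased and 2 increased.

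Of 21 genes of the growth hormone and insulin-like growth factor (IGF) axis, 6 decreased and 1 increased. The gene that increased was Ghr, the growth hormone receptor, from 762.2 and 737.6 CPM to 1083 and 1135 CPM (log2 change 0.56, SE 0.10, edgeR adjusted p = 0.00675). Igf1, the growth factor made by hepatocytes under growth hormone, was at 1779 and 1522 CPM at P28 and at 1032 and 1322 CPM in adult (log2 change -0.49, SE 0.14, edgeR adjusted p = 0.0509), a call that was lost without the first P28 or the first adult library. Of the binding proteins, Igfbp1 fell by 3.17 on the log2 scale (SE 0.65) and Igfbp3 by 1.29 (SE 0.12). Stat5a and Stat5b, which carry the signal to the nucleus, fell by 1.02 (SE 0.13) and 0.54 (SE 0.11).

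Markers of resident macrophages and genes induced by interferon decreased. All 12 Kupffer cell markers decreased, 1 of them more than 3-fold, and their sum went from 795.2 and 659.9 CPM to 368.9 and 376.5 CPM. Clec4f, the lectin specific to Kupffer cells, was at 247.3 and 207.2 CPM at P28 and at 122.0 and 124.7 CPM in adult (log2 change -0.88, SE 0.17, edgeR adjusted p = 0.0114). Marco, a scavenger receptor, fell further, from 17.2 and 14.3 CPM to 2.61 and 2.23 CPM (log2 change -2.70, SE 0.14). All 12 markers were higher in the first P28 library than in the second, and 11 of the 12 decreased without it. Of 20 interferon-induced genes, 17 decreased, 6 of them more than 3-fold, and 16 were higher in the first P28 library. Usp18, which removes the ubiquitin-like ISG15, went from 15.7 and 14.8 CPM to 2.96 and 3.59 CPM (log2 change -2.22, SE 0.14, edgeR adjusted p = 4.87e-05).

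The late changes were then set beside the changes from E18 to P14, a comparison that shares no libraries with this one. From E18 to P14, 13.8% of the tested genes increased and 15.4% decreased more than 3-fold at the same FDR. Of the 382 late decreases, 165 (43.2%) had also decreased from E18 to P14, which was 6.26% of the early decreases, 86 (22.5%) had increased, which was 3.65% of the early increases, and 131 (34.3%) had not been called. Of the 131 late increases, 27 (20.6%) had increased, 28 (21.4%) had decreased and 76 (58.0%) had not been called. The 27 and 28 genes were 1.15% of the early increases and 1.06% of the early decreases.

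The late-changing members of the lists differed in their early change. Of the 69 proliferation genes that decreased more than 3-fold late, 63 had decreased early, and 68 were highest at E18. Of the 18 matrix genes that did so, 2 had decreased early, 4 had increased early and 12 had not been called, and 10 were highest at P14. Eln was at a stage mean of 22.2 CPM at E18 and 232.5 CPM at P14, and Sparc at 188.2 and 760.0 CPM. Of the 15 sex-biased genes that decreased more than 3-fold, 13 had increased early and 11 were highest at P14. All 12 P450 genes that decreased more than 3-fold had increased early, and 10 of these were highest at P14. Some genes, Cyp2b9 among them, are in both lists. Whole lists also moved early. Summed levels at E18 and then P14 were 244.7 and 228.6 against 11750 and 10410 CPM for P450 genes. For proliferation genes they were 11140 and 13060 against 1997 and 2149 CPM. Whether members that changed late differed in their early change from those that did not was not tested.

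**Figure D5:**
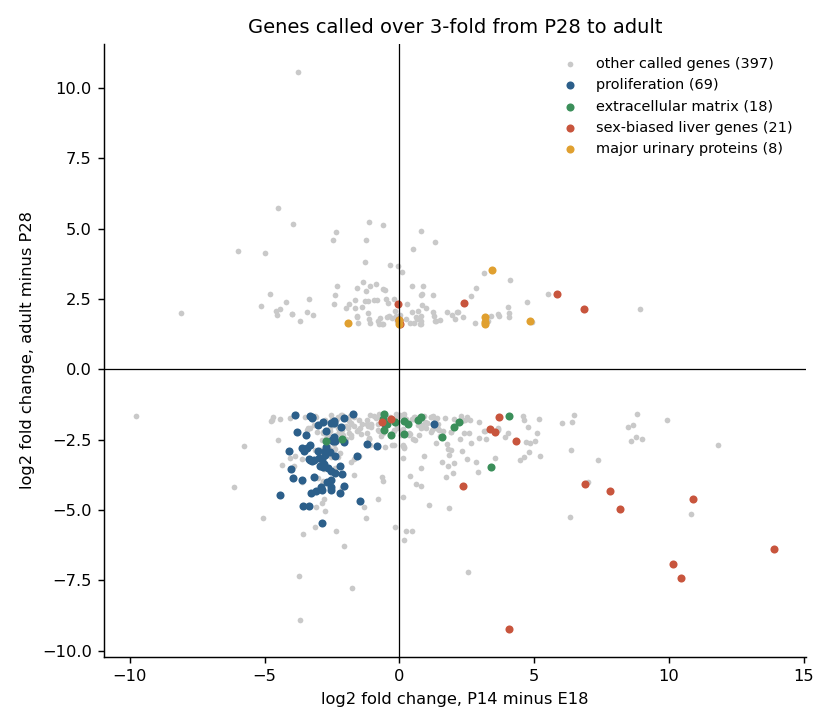
Log2 fold change from E18 to P14 (horizontal) against log2 fold change from P28 to adult (vertical) for the 513 genes that changed more than 3-fold in the late interval, each point being 1 gene. Colours mark proliferation (69), matrix (18), sex-biased (21), major urinary protein (8) and other genes (397). Of the 69 proliferation genes, 63 had also decreased more than 3-fold from E18 to P14 and lie at the lower left, and most sex-biased genes that decreased lie at the lower right.

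The change from P14 to P28, which uses the same P28 libraries, is given only as values. Mki67 fell by 1.80 on the log2 scale from P14 to P28 and by 4.47 from P28 to adult, and Hmmr by 1.08 and 4.85. Top2a fell by 2.76 in each interval and Cdk1 by 2.38 and then 2.57. Eln fell by 2.48 and then 3.47, Col3a1 by 1.59 and 2.42, and Sparc by 0.94 and 2.06.

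Esrp2, the splicing factor that the study is named for, was at 121.4 and 124.4 CPM at P28 and at 104.3 and 102.7 CPM in adult. The stages did not overlap, and the log2 change of -0.25 (SE 0.09, edgeR adjusted p = 0.0907) passed the FDR in the fit of all 8 libraries but was lost under 9 of 15 alternatives, among them leaving out any 1 of the 4 libraries compared. From E18 to P14 it had increased by 1.61 on the log2 scale. Esrp1 was counted with 18 and 10 reads at P28 and 10 and 11 reads in adult, and a difference was not detectable at this depth. Of the 44 splicing regulators tested, 3 decreased, 1 increased and none changed more than 3-fold. Without the second adult library 0 of them decreased.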

How the data were processed

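Poly(A) RNA of whole mouse liver was sequenced as 100 bp read pairs. The authors deposited, for each of 22059 gene symbols, raw read counts per sample without normalization, and RPKM (counts divided by transcript length in kilobases and by mapped reads in units of 1000000), which were not used in any test. The submitters' processing notes name the genome build mm9, and the aligner is not given in the sources used here. Whether counting used strand is not stated.

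Stages were taken from the sample labels. Counts were fitted with edgeR (version 4.0.16) in R 4.3.3 by glmQLFit and glmQLFTest after filterByExpr and TMM scaling, with 1 coefficient per stage over all 8 samples and adult minus P28 as the contrast, and adjusted by the Benjamini-Hochberg method over the 17081 genes kept. The study used DESeq at an FDR of 0.1 and counted changes over 3-fold, and both thresholds were kept. The SE is the size of a log2 fold change divided by the square root of F, with a median of 0.157 over all genes. Counting intervals cover counting error only. The fit was tested on simulated data. DESeq2 (version 1.42.0), other scalings and filters, and fits without 1 library were run as alternatives. Nothing shows that duplicates came from separate litters, so adjusted p-values measure the spread between these duplicates, pooled over all 8 libraries. A total of 12 symbols that read as dates stayed in the fit without a name.

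The comparison and the gene lists were chosen with earlier results of these data known. Named genes were the 10 largest increases and decreases with a mean of at least 1 CPM at the higher stage, up to 6 called members of each list by level and up to 6 by change, and a set of usual markers of proliferation and matrix. Genes named outside this rule after their values were seen were Alb, Plk1, Aurkb, Bub1, Ccnb2, Cenpf, Cdca8, Spag5, Cdt1, Mcm3, Mcm6, Pole2, Rrm2, Tk1, Ccnd1, Loxl2, Fbn1, Abcd2, Susd4, Cyp3a11, Clec4f and Marco, and those marked so in the text. Hmgcs1, Mzb1 and Ahsp were not analysed here, and the values of some single genes are not reported here. Promoters are those of RefSeq on GRCm38.p6, and 93 of 107 had their end in a transcript of the gene as written and 0 reversed.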

Additional observations from a re-analysis of the deposited data

How the results depend on the processing

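No named gene that was called changed direction under any alternative. Of the named genes that were not called, the log2 changes of Fn1, Spc24, Hjurp, Esrp1, Xist and 2 Y-linked genes lay on both sides of 0. The counts over 3-fold moved by more than 1.5 times in both directions under 2 settings only. Requiring at least 10 counts in every sample removed most genes that are near 0 at a stage and left 61 increased, 199 decreased, 42 proliferation genes decreased more than 3-fold and 143 of the 306 genes also called from E18 to P14. It also left 0 increased major urinary proteins, 11 decreased female-biased genes and 6 decreased P450 genes. A threshold of 2-fold gave 242 increased, 814 decreased, 36 matrix genes and 702 genes also called early. At an FDR below 0.05, 786 genes increased at any fold. DESeq2 called 118 genes increased and 351 decreased, scaling by median ratios 133 and 382, scaling by total counts 135 and 369, and the 4 P28 and adult libraries alone 123 and 343 (this fit gives no count of genes also called early). Other scalings moved the median of all genes by at most 0.031 on the log2 scale.

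Leaving out 1 of the 8 libraries gave 94 to 140 genes increased and 290 to 410 decreased over 3-fold, and 515 to 1689 increased and 1152 to 2479 decreased at any fold. The ranges were 92 to 102 and 61 to 72 for proliferation genes decreased at any fold and over 3-fold, 46 to 69 and 13 to 21 for matrix genes, 239 to 322 for genes also called early, and 104 (without the first P28 library) to 158 for the 160 named genes that were called. Of these 160, 92 were called under every alternative that gave them a value, 50 were lost only when a library was left out and 18 under another alternative. Requiring 10 counts gave 116 named genes. A lone library of a stage was assumed to vary like the others.

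Same-numbered P28 and adult libraries did not deviate together (r = -0.386 over 8703 genes, and -0.167 to 0.156 for the other pairs of stages), so that the numbers do not pair the samples. With the replicate number as a block, 133 genes increased and 368 decreased over 3-fold, 1142 and 2057 at any fold, 99 and 70 proliferation genes and 66 and 19 matrix genes decreased, 146 named genes were called and 301 genes were also called early. With the adult numbers crossed, a setting chosen after seeing the data, 135 increased and 379 decreased. With 2 libraries a stage, genes with few reads, Ccnb1 and Esrp1 among them, are limited by their counts.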

Other observations

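Genes of the circadian clock changed between the stages, and the labels give no time of collection, so that age and time of day cannot be told apart. Of 18 genes tested, 9 increased and 3 decreased. Here and for the counts that follow, the shares over all tested genes were 7.94% increased and 13.2% decreased. Arntl (Bmal1), the activator of the core clock, was at 27.9 and 16.7 CPM at P28 and at 3.94 and 6.45 CPM in adult, and Npas2, a partner of Arntl, at 7.90 and 2.88 CPM against 0.292 and 0.678 CPM. Per1 and Per2, which repress them, went from 10.2 and 7.02 CPM to 39.8 and 18.7 CPM and from 29.5 and 35.2 CPM to 87.6 and 66.9 CPM. The output gene Dbp was at 42.1 and 140.6 CPM at P28 and at 303.3 and 185.4 CPM in adult, with libraries of 1 stage far apart. The count of 9 increased genes fell to 2 without the first P28 library and to 2 without the first adult library. Usp2 and Rgs16, rhythmic genes of liver, increased by 3.19 (SE 0.64) and 2.61 (SE 0.42) on the log2 scale in edgeR's test. Alas1, the rate-limiting enzyme of heme synthesis, was at 290.2 and 89.3 CPM at P28 and at 954.1 and 826.6 CPM in adult. Usp2, Rgs16 and Alas1 were named after their values were seen.

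In lipid synthesis, 6 of 24 cholesterol synthesis genes increased and 3 decreased, but the 6 became 1 without the first P28 library, 3 without the first adult library and 1 without the second. Elovl5 and Fads2, which lengthen and desaturate polyunsaturated fatty acids, decreased from 1492 and 1004 CPM to 516.9 and 501.6 CPM and from 542.3 and 457.8 CPM to 308.7 and 297.3 CPM.

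Of 57 conjugation enzymes 13 increased and 5 decreased, and the 13 became 7 without the first P28, the second P28 or the first adult library, and 8 without the second adult library. The 5 became 0 without the first P28 library, 3 without the second P28 or the first adult library and 2 without the second adult library. Of 17 acute phase genes 3 increased (1 without the first P28 or the second adult library) and 2 decreased. Of 13 immediate early genes none increased and 4 decreased (2 without the first P28 or the second adult library), led by Egr1 at 14.5 and 17.6 CPM against 4.21 and 3.37 CPM. Of 20 zonation genes 1 decreased and 5 increased, with 1 to 3 increased when any of the 4 libraries was left out and 10 without either E18 library.

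Of 15 T and NK cell markers 7 decreased and 1 increased, at summed levels of 18.7 and 13.7 CPM at P28 and 14.0 and 17.5 CPM in adult, which overlapped. The 7 became 0 without the first P28 library, 2 without the first adult library and 3 without the second. Of 11 erythroid markers 4 decreased and 1 increased, and the 4 became 1 without the first P28 or the first adult library and 2 without the second adult library. Of the 8 B cell, 10 neutrophil and 4 mesothelial markers, 1, 3 and 1 decreased, and 1, 0 and 0 increased. None of 8 antigen-presenting cell markers passed the test.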
